A study of Mus musculus with 27 samples.

Results

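The change in gene expression during the step to 4 h of adipogenic hormone mixture was examined in vector-carrying 3T3-L1 cells, by setting 3 arrays taken at 4 h against 3 arrays taken at 2 h, which are 6 of the 27 arrays of the series. The arrays were chosen by their labels alone, and all 19938 genes that a probe set names were compared. 3T3-L1 is an established mouse fibroblast line that becomes fat cells when confluent cultures receive hormones. The 4 h and the 2 h cells carried the pMIG construct, a retroviral vector used here without an insert. Both had been left for 2 days after confluence and then received medium with 10% fetal calf serum, 350 nM insulin, 0.5 mM isobutylmethylxanthine (IBMX, which blocks the breakdown of cAMP), 250 nM dexamethasone (a synthetic glucocorticoid) and 400 nM biotin. Vector cells in the same mixture for 0.5, 1 and 8 h, and vector cells sampled at 0 h, just before the mixture, place the step in time. Each group has 3 arrays, described by the submitters as biological triplicates. Cells kept without the mixture for 2 h or 4 h are not among the samples analysed here, so time in the mixture and time since the change of medium cannot be told apart.

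In this line the mixture sets off a relay of transcription factors. Immediate early genes such as those of the Fos, Egr and Nr4a families are transcribed within minutes and their short-lived mRNAs are then cleared. C/EBPbeta and C/EBPdelta follow, and over days they lead to C/EBPalpha and PPARgamma, the factors that install the fat cell programme. Confluent preadipocytes also re-enter the cell cycle after the mixture, and growth requires new ribosomes, which are assembled in the nucleolus by RNA polymerase I, snoRNA-guided modifying enzymes and a large set of processing factors. The step at 4 h against 2 h lies between the early burst and the later differentiation genes.

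RNA was hybridised to Affymetrix mouse gene arrays, and the values are log2 intensities, 1 value per probe set and array. Array medians were 7.92 to 7.96 at 4 h and 7.89 to 7.99 at 2 h. Pearson correlations over probe sets between arrays of 1 group were 0.9976 to 0.9983 at 4 h and 0.9957 to 0.9979 at 2 h. Detection calls were not used here, so a low value may be background, and the 3 arrays in each group limit the precision. The fibroblast collagen gene Col1a2 had 12.97, 12.97 and 12.91 in the 4 h arrays, against 13.12, 13.19 and 13.09 in the 2 h arrays, and the fibroblast surface gene Thy1 had 12.59, 12.63 and 12.55 in the 4 h arrays, against 12.68, 12.66 and 12.69 in the 2 h arrays, so markers of the labelled cell type were high at both times. Of 20 fibroblast markers, 0 rose and 7 fell, and their summed linear intensity was 151144 to 154093 at 4 h and 167961 to 169138 at 2 h. In bulk RNA of this kind, fewer cells of a type and less RNA per cell cannot be told apart.

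Genes moved in both directions in like number at 4 h against 2 h. By limma, with 1 spread shared by all 27 arrays and Benjamini-Hochberg adjustment over the 19938 genes, 5579 genes (28.0%) passed the test at an adjusted p under 0.05, of which 2740 (13.7%) were higher and 2839 (14.2%) were lower at 4 h. Large changes were fewer and leaned downward. At least 2-fold, 72 genes (0.361%) were higher and 145 (0.727%) were lower. Among the 10822 genes with a mean level of at least 8, which is where most of the named genes lie, 23.0% were higher and 24.1% were lower. List counts given below are to be read beside these shares and those of all genes. Changes of moderate size prevailed, and the median absolute log2 difference over all genes was 0.11. Below, a bracket after a gene holds its log2 difference, 4 h minus 2 h, with the standard error of the fit. Genes said to have risen or fallen passed this test.

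**Figure D1:**
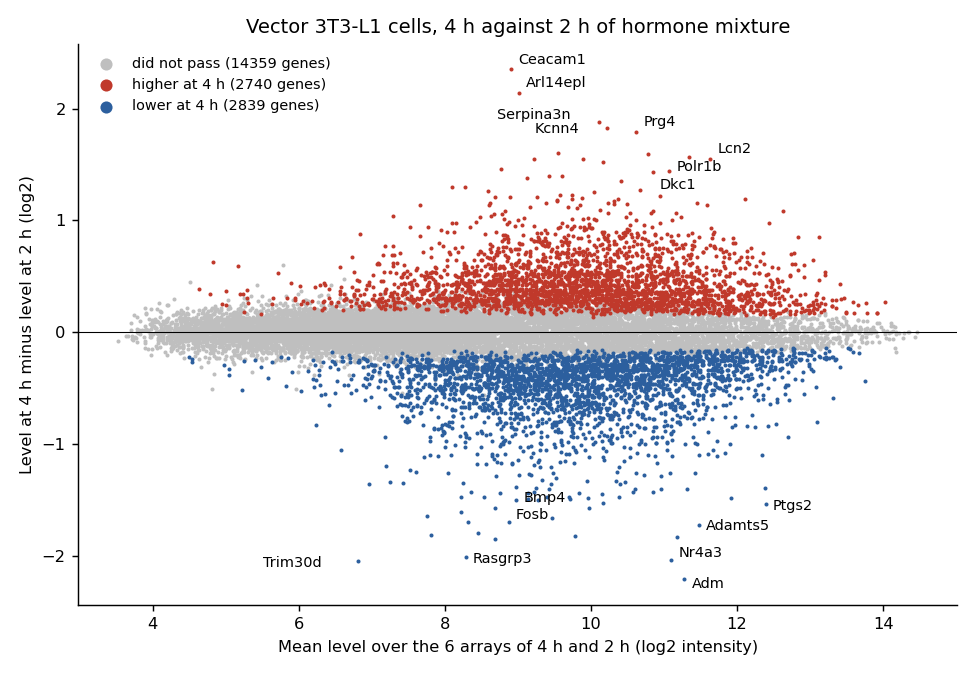
Each point is 1 gene, with its mean level over the 6 arrays of 4 h and 2 h on the x axis (log2 intensity) and its level at 4 h minus that at 2 h on the y axis (log2). Red points (2740) were higher and blue points (2839) lower at 4 h past the test, grey points did not pass, and the largest falls, such as Adm (-2.21) and Nr4a3 (-2.04), lie about as far from 0 as the largest rises, Ceacam1 (2.35) and Arl14epl (2.14).

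The largest rise was in Ceacam1, which encodes a cell adhesion protein also known for its part in insulin clearance by the liver. Its level was 10.16, 9.98 and 10.10 in the 4 h arrays, against 7.87, 7.54 and 7.77 in the 2 h arrays, a 5.1-fold difference (2.35 ± 0.14 on the log2 scale, adjusted p = 1.29e-12). The groups stood far apart, and the mean at 8 h (10.21) was close to that at 4 h. Serpina3n, an acute phase protease inhibitor, had 11.06, 10.97 and 11.13 in the 4 h arrays, against 9.17, 9.21 and 9.14 in the 2 h arrays (1.88 ± 0.09, adjusted p = 1.23e-13). Kcnn4, the gene of a calcium-activated potassium channel, had 11.07, 11.24 and 11.11 in the 4 h arrays, against 9.22, 9.35 and 9.36 in the 2 h arrays (1.83 ± 0.09, adjusted p = 1.96e-13). In Kcnn4 the means at 0, 0.5, 1 and 2 h lay between 9.25 and 9.38, so up to 8 h the rise was seen only in the arrays of 4 h and 8 h. The same shape was found in Sinhcaf (1.55 ± 0.10), a subunit of the SIN3 histone deacetylase complex, and in Mfsd13a (1.46 ± 0.08). Among the other large rises, Prg4 (1.79 ± 0.11) encodes the lubricating proteoglycan lubricin, Alpl (1.60 ± 0.08) the tissue-nonspecific alkaline phosphatase, and Lcn2 (1.55 ± 0.09) a lipocalin that binds bacterial iron carriers. Chst11 (1.57 ± 0.08) encodes a chondroitin sulfotransferase and Itpk1 (1.52 ± 0.09) an inositol phosphate kinase. Itpk1 did not hold its level, with a mean of 10.92 at 4 h and 9.64 at 8 h. The remaining members of the 15 largest rises were Arl14epl (2.14 ± 0.08), Pus7l (1.55 ± 0.09), which encodes a protein like the RNA-modifying pseudouridine synthases, Ramp3, Polr1b and Dkc1, which are given below.

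The largest fall was in Adm, the gene of the vasodilator peptide adrenomedullin. Its level was 10.03, 10.17 and 10.32 in the 4 h arrays, against 12.29, 12.38 and 12.49 in the 2 h arrays, which is 4.63-fold lower at 4 h (-2.21 ± 0.11, adjusted p = 2.08e-13). All 4 h arrays lay below all 2 h arrays, and Adm had peaked earlier, with means of 10.96, 12.62, 13.18, 12.39, 10.17 and 9.21 at 0, 0.5, 1, 2, 4 and 8 h. The receptor for adrenomedullin is a complex of the protein of Calcrl with a small partner of the RAMP family, and its genes moved apart. Ramp3, the gene of such a partner, had 11.58, 11.58 and 11.55 in the 4 h arrays, against 9.90, 9.96 and 10.09 in the 2 h arrays (1.59 ± 0.11, adjusted p = 4.29e-11). Calcrl, chosen for mention after its values were seen, fell, with 10.11, 10.21 and 10.39 in the 4 h arrays, against 11.27, 11.15 and 11.28 in the 2 h arrays (-1.0 ± 0.10, adjusted p = 1.34e-08). The other partners, Ramp1 (-0.02 ± 0.09) and Ramp2 (-0.01 ± 0.10), also named after their values were seen, did not pass the test. Ligand and receptor were thus lower at 4 h while the partner Ramp3 was higher.

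Genes of signalling proteins were among the other large falls. Rasgrp3, which encodes an activator of Ras, had 6.96, 7.47 and 7.40 in the 4 h arrays, against 9.29, 9.09 and 9.50 in the 2 h arrays (-2.01 ± 0.12, adjusted p = 5.18e-12). Rerg (-1.66 ± 0.08), which encodes a Ras-like growth inhibitor, fell beside it. Receptor genes that fell were Lpar4 (-1.82 ± 0.10), for lysophosphatidic acid, Gpr39 (-1.64 ± 0.12), which responds to zinc, and Tlr3 (-1.80 ± 0.09), a sensor of viral RNA. Several of these genes shared a time course. Each of Rasgrp3, Rerg, Gpr39 and Tlr3 had nearly the same mean at 0, 0.5 and 1 h and lay lower at 4 h, as Rasgrp3 did with 9.83, 9.91, 9.95, 9.29, 7.28 and 6.42 at 0, 0.5, 1, 2, 4 and 8 h. Further falls were in Adamts5 (-1.72 ± 0.10), a protease that cuts the proteoglycan aggrecan, Hivep2 (-1.70 ± 0.16), a zinc finger transcription factor, Rab7b (-1.81 ± 0.12), a small GTPase of membrane traffic, and Serpinb8 (-1.61 ± 0.11), a protease inhibitor. Trim30d (-2.05 ± 0.16) belongs to a family of close copies, whose transcripts the probe sets may not separate, and its 4 h values of 5.73 to 5.86 are among the dim ones. Nr4a3 and Fosb complete the 15 largest falls.

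**Figure D2:**
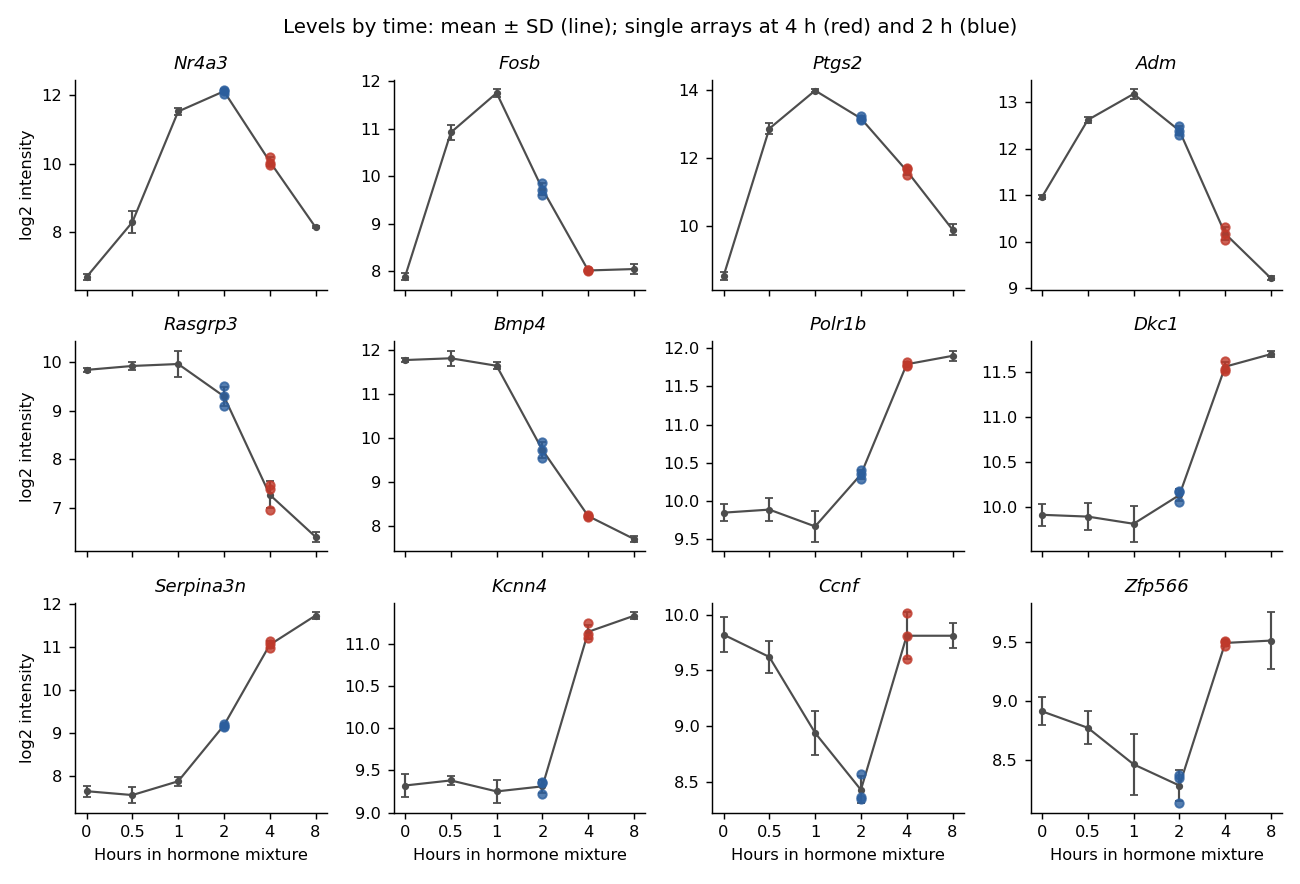
Mean level ± SD (log2 intensity, n = 3 arrays each) of 12 genes at 0, 0.5, 1, 2, 4 and 8 h, with the single arrays of 4 h in red and of 2 h in blue; time points are drawn at equal spacing. Nr4a3, Fosb, Ptgs2 and Adm are past their peak at 4 h, Rasgrp3 and Bmp4 decline from the 1 h level, Polr1b, Dkc1, Serpina3n and Kcnn4 lie within 0.68 log2 units of their 8 h mean at 4 h, and Ccnf and Zfp566, both chosen after their values were seen, dip at 1 to 2 h and reach or pass their 0 h mean by about 4 h.

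The genes of ribosome assembly rose nearly without exception. Of 61 measured members of a list of ribosome biogenesis and RNA polymerase I genes, 59 (96.7%) were higher and 1 was lower at 4 h, against 13.7% higher and 14.2% lower among all genes. All 61 had a mean level of at least 8, where 23.0% of genes were higher and 24.1% lower. The median difference of the members was 0.74, against 0.01 over all genes, and 10 members rose at least 2-fold. In 59 members all 4 h arrays lay above all 2 h arrays, where 40.5% of all genes had groups that did not overlap, in either direction. Promoters of 4 members are shown first, because the members moved together. These are 100 bases of the RefSeq promoter windows, build GRCm38.p6, read 5′ to 3′ on the gene's strand, with the motif in capitals. They come from Utp18 (chr11:93885767-93885866, minus strand), Nop2 (chr6:125131776-125131875, plus strand), Ddx10 (chr9:53248247-53248346, minus strand) and Mphosph10 (chr7:64392237-64392336, minus strand). They were taken in order of their rise among members with each motif in the 250 bases before the start, and were thus chosen after their values were seen.
Utp18: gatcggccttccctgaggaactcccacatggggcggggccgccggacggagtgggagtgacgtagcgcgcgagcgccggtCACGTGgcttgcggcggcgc
Nop2: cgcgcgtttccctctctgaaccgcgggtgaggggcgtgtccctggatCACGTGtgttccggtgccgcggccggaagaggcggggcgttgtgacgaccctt
Ddx10: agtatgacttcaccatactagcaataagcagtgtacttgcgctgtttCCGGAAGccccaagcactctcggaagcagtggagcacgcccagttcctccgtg
Mphosph10: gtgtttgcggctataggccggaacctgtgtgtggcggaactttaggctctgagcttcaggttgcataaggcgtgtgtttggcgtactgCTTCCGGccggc
In Utp18 and Nop2 the capitals mark CACGTG, the E-box bound by MYC and related factors, 15 to 20 and 55 to 60 bases before the start of the gene. In Ddx10 and Mphosph10 they mark CCGGAAG, a site of ETS factors, 181 to 187 and 6 to 12 bases before the start, which in Mphosph10 reads CTTCCGG because it lies on the other strand. The Nop2 stretch also holds the ETS letters, left in lower case. For the counts that follow, both strands were searched in windows of 250 bases before to 50 bases after the start. The E-box letters were in 13 of the 55 list members with a promoter (23.6%), in 12.0% of genes with a mean level of at least 8 and in 8.09% of all 27025 promoters. They were also in 5 of 21 members of the immediate early list (23.8%) and 6 of 27 of the cAMP and CREB target list (22.2%). The ETS letters were in 22 of 55 (40%), in 20.5% of genes with a mean level of at least 8 and in 9.93% of all promoters. Among all genes that rose, 25.9% held the ETS letters and 13.3% the E-box, against 14.5% and 11.3% of those that fell. A match says only that the letters are there.

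The strongest rises in the list were in the polymerase itself and in RNA modification. Polr1b, a core subunit of RNA polymerase I, had 11.82, 11.77 and 11.78 in the 4 h arrays, against 10.36, 10.29 and 10.41 in the 2 h arrays (1.44 ± 0.09, adjusted p = 1.53e-11). Dkc1, the pseudouridine synthase dyskerin of the snoRNA particles, had 11.53, 11.62 and 11.51 in the 4 h arrays, against 10.16, 10.05 and 10.17 in the 2 h arrays (1.43 ± 0.09, adjusted p = 8.04e-12). In both genes the groups were separate, and the means at 8 h, 11.90 and 11.70, lay near those of 4 h, 11.79 and 11.56. Polr1e (1.40 ± 0.09), another subunit of the polymerase, and the processing factors Rrp12 (1.23 ± 0.07), Rcl1 (1.22 ± 0.10) and Rrp9 (1.19 ± 0.07) rose with them. Of the promoters shown above, Ddx10, an RNA helicase of ribosome assembly, had 10.64, 10.62 and 10.77 in the 4 h arrays, against 9.66, 9.51 and 9.58 in the 2 h arrays (1.09 ± 0.11, adjusted p = 1.49e-08). Mphosph10 (0.97 ± 0.14), Utp18 (0.91 ± 0.13) and Nop2 (0.84 ± 0.07), which act in the small and large subunit's maturation, also rose. The member that fell was Ubtf, the upstream binding factor that keeps ribosomal DNA open for RNA polymerase I, with 11.07, 11.10 and 11.17 in the 4 h arrays, against 11.67, 11.63 and 11.66 in the 2 h arrays (-0.54 ± 0.06, adjusted p = 1.07e-07). In Ubtf, too, the groups did not overlap, with the 4 h arrays below.

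Most changed members of related growth lists rose too. RNA polymerase III and tRNA processing genes were higher in 21 and lower in 1 of 26 (median 0.49). Polr3g, a variant subunit of RNA polymerase III, had 8.65, 8.84 and 8.76 in the 4 h arrays, against 7.39, 7.42 and 7.52 in the 2 h arrays (1.30 ± 0.15, adjusted p = 2.3e-07). The tRNA and RNA modifying enzymes Pus7 (0.90 ± 0.09) and Trmt61a (0.89 ± 0.09), the RNase P subunit Rpp40 (0.86 ± 0.15), and the tRNA end-processing enzymes Elac2 (0.85 ± 0.07) and Trnt1 (0.75 ± 0.11) rose as well. The member that fell was Maf1 (-0.32 ± 0.08), the repressor of RNA polymerase III. Translation initiation factors and tRNA synthetases were higher in 19 and lower in 1 of 30 (median 0.28), led by Eif2b3 (0.89 ± 0.09) and Eif2b1 (0.87 ± 0.08), subunits of the exchange factor that recharges eIF2. Cars (-0.44 ± 0.08), the cysteinyl-tRNA synthetase, was the member that fell. Nucleotide synthesis genes were higher in 18 and lower in 2 of 27 (median 0.42). The pyrimidine enzymes Umps (1.02 ± 0.10), Ctps (0.96 ± 0.12) and Cad (0.74 ± 0.09) and the purine enzymes Ppat (0.79 ± 0.11), Atic (0.73 ± 0.07) and Gart (0.72 ± 0.07) all rose.

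The building blocks of ribosomes and mitochondria did not move alike. Mitochondrial ribosome genes were higher in 17 and lower in 0 of 30 (median 0.30), with Mrpl19 (0.78 ± 0.08) and Mrps30 (0.70 ± 0.11) in front. Of 25 measured genes of cytosolic ribosomal proteins 0 passed the test in either direction, with differences from -0.08 to 0.11. These genes were bright, with levels that averaged 12.62 at 4 h and 12.61 at 2 h. Respiratory chain genes were higher in 4 (11.8%) and lower in 1 (2.94%) of 34. All of them had a mean level of at least 8, where 23.0% of all genes were higher and 24.1% lower. Cox5a (0.32 ± 0.08), Cycs (0.29 ± 0.08), the gene of cytochrome c, and Cyc1 (0.28 ± 0.08) were among the rises. Proteasome genes were higher in 8 (24.2%) and lower in 0 of 33 (median 0.12). The share of rises was near the 23.0% of all genes with a mean level of at least 8. The count of higher ones ran between 2 and 16 under other settings. Psme3 (0.28 ± 0.06) and Psmd12 (0.27 ± 0.07) were the most changed that passed under all settings.

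**Figure D3:**
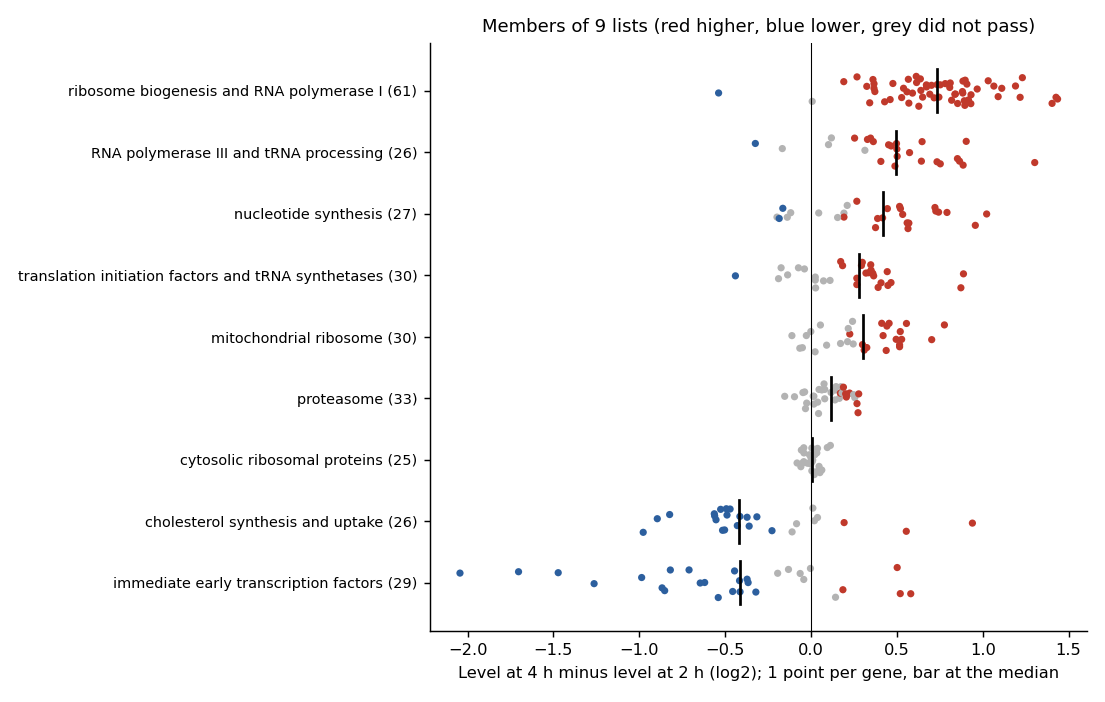
Each point is 1 gene of 9 lists, placed on the x axis by its level at 4 h minus that at 2 h (log2), with a black bar at the list's median; red points rose, blue points fell and grey points did not pass. The ribosome biogenesis list sits right of 0 (median 0.74), the cytosolic ribosomal proteins lie within 0.11 of it, and the cholesterol and immediate early lists lie to its left (medians -0.42 and -0.42).

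Most immediate early genes were on their way down. Of 29 such transcription factors, 19 were lower and 4 were higher at 4 h, with a median of -0.42. The sequence shown is 100 bases of the Egr2 promoter (RefSeq, build GRCm38.p6, chr10:67537449-67537548, plus strand), since Egr2 was among the steepest falls and its window holds a CArG box, the site of serum response factor (SRF), in capitals 63 to 72 bases before the start.
Egr2: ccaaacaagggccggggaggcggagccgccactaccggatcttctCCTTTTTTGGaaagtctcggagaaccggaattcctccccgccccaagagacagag
CArG boxes were found in 2 of 21 immediate early genes with a promoter (9.52%), in 2 of 25 nucleotide synthesis genes (8.0%), in 1.62% of genes with a mean level of at least 8 and in 1.81% of all promoters. Nr4a3 and Nr4a2, of a family of orphan nuclear receptors, were among the steepest falls. Nr4a3 had 9.98, 10.03 and 10.20 in the 4 h arrays, against 12.14, 12.05 and 12.15 in the 2 h arrays (-2.04 ± 0.12, adjusted p = 1.16e-12), and the groups lay about 2 log2 units apart. Nr4a2 had 10.69, 10.79 and 10.89 in the 4 h arrays, against 12.01, 11.99 and 12.17 in the 2 h arrays (-1.26 ± 0.09, adjusted p = 4.29e-11). Fosb, a partner of Jun in AP-1, had 8.00, 8.04 and 8.03 in the 4 h arrays, against 9.61, 9.72 and 9.85 in the 2 h arrays (-1.70 ± 0.10, adjusted p = 1.07e-12). By 4 h Fosb was back near its starting level, with a mean of 8.02 at 4 h against 7.89 at 0 h, whereas the mean of Nr4a3 was still 10.07 at 4 h against 6.70 at 0 h. Egr2, a zinc finger factor that acts early in adipogenesis, had 9.52, 9.79 and 9.65 in the 4 h arrays, against 11.14, 10.95 and 11.28 in the 2 h arrays (-1.47 ± 0.11, adjusted p = 1.97e-10). Klf4 (-0.99 ± 0.08) and Klf6 (-0.87 ± 0.08), of the Krüppel-like family, fell too. Fosl1, which encodes the AP-1 member Fra-1, went the other way, with 13.02, 12.91 and 13.00 in the 4 h arrays, against 12.55, 12.43 and 12.45 in the 2 h arrays (0.50 ± 0.09, adjusted p = 0.000113). Klf10 (0.58 ± 0.07) and Bhlhe40 (0.52 ± 0.11), both repressors of transcription, also rose. The AP-1 and Krüppel-like members thus did not share 1 direction.

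Genes that restrain growth factor signals were mixed. Among 24 feedback inhibitors of MAP kinases and receptors 5 (20.8%) were higher and 9 (37.5%) lower (median -0.11). All but 1 had a mean level of at least 8, where 23.0% of all genes were higher and 24.1% lower. The cytokine signal inhibitors Socs3 (0.54 ± 0.07) and Socs1 (0.53 ± 0.07) and the phosphatase Dusp4 (0.51 ± 0.11) rose, whereas Spry2 (-0.94 ± 0.11), an inhibitor of receptor tyrosine kinase signals, and the ERK phosphatase Dusp5 (-0.70 ± 0.06) fell. The mRNA decay and growth brake genes were higher in 2 and lower in 7 of 19. Zc3h12c (-0.96 ± 0.09), Btg2 (-0.93 ± 0.10), Gadd45b (-0.77 ± 0.10) and Zfp36 (-0.67 ± 0.08), the gene of the mRNA-destabilising protein tristetraprolin, fell. Tob1 (0.55 ± 0.06), an antiproliferative relative of Btg2, rose.

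Targets of cAMP, which IBMX preserves, were lower in 17 and higher in 6 of 38 (median -0.15). Ptgs2, the inducible cyclooxygenase, had 11.49, 11.67 and 11.69 in the 4 h arrays, against 13.15, 13.11 and 13.22 in the 2 h arrays (-1.54 ± 0.10, adjusted p = 2.29e-11). It remained well above its 0 h mean of 8.52. Gem (-1.0 ± 0.08), a small GTPase that inhibits calcium channels, fell as well. Pde10a, a phosphodiesterase that degrades cyclic nucleotides, rose, with 9.22, 9.21 and 9.22 in the 4 h arrays, against 8.03, 7.95 and 7.88 in the 2 h arrays (1.26 ± 0.07, adjusted p = 1.83e-12). Pde4d (0.30 ± 0.07) also passed, but the direction held only for its brightest probe set, since the mean of its probe sets gave -0.06 (adjusted p = 0.794). In the prostaglandin list 3 of 21 (14.3%) were higher and 5 (23.8%) lower, against 13.7% and 14.2% of all genes tested. The synthases downstream of cyclooxygenase, Ptges (0.60 ± 0.07) and Ptges2 (0.46 ± 0.09), rose while Ptgs2 and the receptors Ptgfr (-0.62 ± 0.08) and Ptger1 (-0.62 ± 0.09) fell. Akr1c14 (-1.21 ± 0.14), an aldo-keto reductase, fell too.

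Cebpb and Cebpd, the early factors of the adipogenic relay, had passed their peak, and the median of the later fat cell genes lay near 0. Of 22 early adipogenic factors 11 were lower and 4 higher (median -0.26). Of 23 late regulators and fat cell markers 3 (13.0%) were lower and 4 (17.4%) higher (median -0.06). These late shares were near those of all genes tested (14.2% and 13.7%). They were below the 24.1% and 23.0% among genes with a mean level of at least 8, which 20 of the 23 had. Cebpb had 11.52, 11.46 and 11.43 in the 4 h arrays, against 11.95, 11.85 and 11.98 in the 2 h arrays (-0.45 ± 0.09, adjusted p = 0.00016). Cebpd had 9.94, 10.08 and 9.96 in the 4 h arrays, against 10.59, 10.66 and 10.55 in the 2 h arrays (-0.61 ± 0.09, adjusted p = 4.01e-06). Both stayed above their 0 h means, which were 9.13 for Cebpb and 8.39 for Cebpd. Pparg had 11.81, 11.81 and 11.79 in the 4 h arrays, against 11.54, 11.48 and 11.51 in the 2 h arrays (0.29 ± 0.06, adjusted p = 0.000434), a rise that brought it back to its 0 h mean of 11.78. Cebpa had 8.85, 8.85 and 8.82 in the 4 h arrays, against 8.67, 8.72 and 8.62 in the 2 h arrays; its arrays did not overlap, yet its difference (0.17 ± 0.10) did not pass the test (adjusted p = 0.26). The steepest fall among early factors outside Egr2 was in Ebf1, an early B cell factor that promotes adipogenesis, with 11.60, 11.68 and 11.80 in the 4 h arrays, against 13.11, 13.04 and 13.10 in the 2 h arrays (-1.39 ± 0.05, adjusted p = 2.64e-15). Its relative Ebf2 (0.42 ± 0.09), a brown fat determinant, and the repressor Bcl6 (0.50 ± 0.09) rose. Stat5b (-0.59 ± 0.08), which carries growth hormone signals, fell. Among late genes, the triglyceride enzymes Dgat2 (0.51 ± 0.12) and Agpat2 (0.37 ± 0.08) rose and Plin1 (-0.36 ± 0.07), the lipid droplet coat gene, fell.

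Preadipocyte genes and repressors of adipogenesis were lower in 10 and higher in 4 of 27 (median -0.13). Sox9, a cartilage factor that holds preadipocytes undifferentiated, was the steepest fall, with 11.11, 11.19 and 11.22 in the 4 h arrays, against 12.28, 12.23 and 12.35 in the 2 h arrays (-1.11 ± 0.06, adjusted p = 2.08e-13). Klf7 (-0.89 ± 0.09), Foxc2 (-0.78 ± 0.08), Ccn5 (-0.65 ± 0.09), which encodes a secreted matricellular protein, and Runx1t1 (-0.64 ± 0.08) fell with it. Klf3 (0.55 ± 0.07), Nr2f2 (0.41 ± 0.09) and the glucocorticoid-induced Tsc22d3 (0.39 ± 0.09) rose. Members of the list thus moved both ways.

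Bmp4, the bone morphogenetic protein that commits precursor cells to the fat lineage, had 8.25, 8.24 and 8.20 in the 4 h arrays, against 9.73, 9.55 and 9.92 in the 2 h arrays (-1.50 ± 0.10, adjusted p = 3.22e-11). Its 4 h and 2 h arrays were far apart, and its means were 11.77, 11.81, 11.64, 9.73, 8.23 and 7.71 at 0, 0.5, 1, 2, 4 and 8 h. Other BMP genes moved less. Of 28 ligands, receptors and antagonists 4 (14.3%) were higher and 4 (14.3%), Bmp4 among them, lower. These shares were near those of all genes tested (13.7% and 14.2%). They were below the 23.0% and 24.1% among genes with a mean level of at least 8, which 20 of the 28 had. The receptor gene Bmpr1a (-0.52 ± 0.07) fell, and Nbl1 (0.59 ± 0.08), an antagonist, and Bmper (0.53 ± 0.10), a modulator of BMP signals, rose. Targets of BMP and Smad proteins were lower in 7 and higher in 2 of 19. Skil (-0.69 ± 0.10), Id3 (-0.66 ± 0.08), Zeb2 (-0.66 ± 0.06) and Smad7 (-0.40 ± 0.07), an inhibitory Smad, fell. Isl1, the LIM homeobox factor that other cells of the series overexpressed, had 8.33, 8.38 and 8.14 in the 4 h arrays, against 8.65, 8.64 and 8.49 in the 2 h arrays (-0.31 ± 0.11, adjusted p = 0.0324) in these vector cells. The arrays did not overlap, but the call was lost without replicate 1 of 4 h (adjusted p = 0.0501), replicate 3 of 4 h (0.176), replicate 1 of 2 h (0.105) or replicate 2 of 2 h (0.0964).

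In the Wnt list 7 of 37 (18.9%) were lower and 3 (8.11%) higher, against 14.2% and 13.7% of all genes tested. Both shares were below the 24.1% and 23.0% among genes with a mean level of at least 8, which 26 of the 37 had. The receptor gene Fzd2 had 9.67, 9.75 and 9.61 in the 4 h arrays, against 10.95, 10.96 and 11.11 in the 2 h arrays (-1.33 ± 0.08, adjusted p = 1.47e-12), and Dkk2 (-0.64 ± 0.09), a Wnt antagonist, and the co-receptor gene Lrp6 (-0.34 ± 0.06) fell as well. The ligand gene Wnt4 rose, with 11.11, 10.91 and 10.90 in the 4 h arrays, against 9.99, 10.11 and 10.08 in the 2 h arrays (0.91 ± 0.10, adjusted p = 4.19e-08). Znrf3 (0.51 ± 0.10), which removes Wnt receptors from the surface, rose too. Of 22 Notch genes, of which 14 had a mean level of at least 8, 4 (18.2%) fell and 0 rose. The share of falls lay between the same 14.2% and 24.1%. The falls were Maml2 (-0.88 ± 0.10), a coactivator, Notch1 (-0.79 ± 0.07), Notch3 (-0.47 ± 0.07) and Rbpj (-0.44 ± 0.06), the DNA-binding partner of Notch.

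Glucocorticoid targets were evenly split, with 10 higher and 10 lower of 33. Lcn2 rose (1.55 ± 0.09, as above), as did Fam107a (1.17 ± 0.10) and Angptl4 (0.57 ± 0.09), an inhibitor of lipoprotein lipase. Pdk4, which shuts pyruvate dehydrogenase, fell, with 11.11, 11.24 and 11.20 in the 4 h arrays, against 12.64, 12.69 and 12.65 in the 2 h arrays (-1.48 ± 0.06, adjusted p = 2e-14). Sgk1 (-0.68 ± 0.06), a kinase induced by serum and glucocorticoids, fell too. Nr3c1, the glucocorticoid receptor itself, had 9.60, 9.80 and 9.77 in the 4 h arrays, against 10.49, 10.41 and 10.55 in the 2 h arrays (-0.76 ± 0.09, adjusted p = 3.37e-07). The mineralocorticoid receptor gene Nr3c2 (-1.35 ± 0.12) also fell. Other nuclear receptors and coregulators went both ways, 8 higher and 9 lower of 30, with Rara (0.46 ± 0.07) among the rises and the coactivator Ncoa2 (-0.71 ± 0.07) and the orphan receptor Nr2c2 (-0.63 ± 0.07) among the falls.

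The circadian clock is reset in cultured fibroblasts by serum and dexamethasone, and its genes moved both ways at this step. Of 22 clock genes 7 were higher and 10 lower. Activating and repressing core genes were both among the rises, with Arntl (0.84 ± 0.07), the gene of BMAL1, and Cry1 (0.87 ± 0.08) in front. The repressor gene Bhlhe41, whose protein is also called DEC2, had 8.25, 8.51 and 8.43 in the 4 h arrays, against 9.96, 9.65 and 10.05 in the 2 h arrays (-1.49 ± 0.12, adjusted p = 6.22e-10). Dbp, an output factor of the clock, had 9.16, 9.38 and 9.31 in the 4 h arrays, against 10.52, 10.56 and 10.74 in the 2 h arrays (-1.33 ± 0.09, adjusted p = 1.14e-11). Per3 (-1.27 ± 0.07) and Nr1d2 (-1.07 ± 0.09), a REV-ERB receptor, fell with them, whereas its relative Nr1d1 (0.56 ± 0.08) rose.

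Genes of insulin signalling leaned downward, with 12 of 31 lower and 3 higher (median -0.15). Grb14 (-0.67 ± 0.09), an adaptor that inhibits the insulin receptor, the kinase gene Akt2 (-0.63 ± 0.06), the receptor substrate Irs1 (-0.57 ± 0.09) and the phosphoinositide 3-kinase genes Pik3cb (-0.49 ± 0.11) and Pik3r3 (-0.49 ± 0.11) fell. Mtor (0.42 ± 0.09), the growth kinase, and Igfbp4 (0.29 ± 0.07), which binds insulin-like growth factors, rose. In glucose metabolism 10 of 27 genes were higher and 6 lower, and isoenzymes of phosphofructokinase parted. Pfkl, the liver type, had 11.24, 11.28 and 11.27 in the 4 h arrays, against 10.54, 10.57 and 10.62 in the 2 h arrays (0.69 ± 0.09, adjusted p = 5.5e-07). Pfkm, the muscle type, had 9.95, 10.19 and 10.08 in the 4 h arrays, against 10.94, 10.95 and 11.07 in the 2 h arrays (-0.92 ± 0.07, adjusted p = 1.97e-10). The genes of the bifunctional enzymes that set fructose 2,6-bisphosphate, Pfkfb4 (-1.36 ± 0.09) and Pfkfb3 (-1.05 ± 0.08), fell, and glycogen synthase, Gys1 (0.66 ± 0.07), rose.

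Most sterol genes fell. Of 26 genes of cholesterol synthesis and uptake 18 (69.2%) were lower and 3 (11.5%) higher at 4 h (median -0.42). Among all genes 14.2% were lower, and 24.1% among those with a mean level of at least 8, as all 26 had. Fdft1, squalene synthase, had 10.46, 10.53 and 10.66 in the 4 h arrays, against 11.46, 11.47 and 11.66 in the 2 h arrays (-0.98 ± 0.09, adjusted p = 1.9e-09). Msmo1 (-0.82 ± 0.09), Nsdhl (-0.56 ± 0.06) and Sc5d (-0.56 ± 0.07), enzymes of the later steps, fell, and so did Insig2 (-0.89 ± 0.08), which holds the sterol factor SREBP back in the endoplasmic reticulum. Abca1, the pump that exports cholesterol, went up, with 10.01, 10.14 and 9.98 in the 4 h arrays, against 9.11, 9.13 and 9.06 in the 2 h arrays (0.94 ± 0.09, adjusted p = 1.31e-08). Pmvk (0.55 ± 0.08), phosphomevalonate kinase, was 1 of the 3 rises in the list. Fatty acid and triglyceride genes were split, 8 higher and 9 lower of 24. Gpam (0.57 ± 0.09), the glycerol phosphate acyltransferase, and Acsl4 (0.56 ± 0.06), an acyl-CoA synthetase, rose, and the phosphatidate phosphatases Lpin2 (-0.68 ± 0.08) and Lpin1 (-0.45 ± 0.09) and the desaturase Fads2 (-0.42 ± 0.05) fell.

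Cell cycle genes did not move as a unit. Among cyclins, E2F factors and inhibitors 11 of 32 were higher and 10 lower. Rb1, the retinoblastoma gene, had 7.84, 8.01 and 8.07 in the 4 h arrays, against 9.12, 8.98 and 9.38 in the 2 h arrays (-1.18 ± 0.14, adjusted p = 1.65e-07). Its relative Rbl2 (-0.83 ± 0.09) fell as well. Max (0.79 ± 0.08), the partner of MYC, and Mxd1 (1.0 ± 0.09), an antagonist, rose, while Mxd4 (-0.65 ± 0.07), another antagonist, fell. E2f8 (0.94 ± 0.12), a repressing E2F, rose. DNA replication genes were lower in 16 and higher in 5 of 38 (median -0.20), with the polymerase genes Pole2 (-1.01 ± 0.11), Pola1 (-0.76 ± 0.12) and Prim1 (-0.70 ± 0.14) among the falls and Gins3 (0.73 ± 0.11) and Orc2 (0.69 ± 0.11) among the rises. Mitotic genes were lower in 12 and higher in 6 of 37 (median -0.15). The count of lower ones ran between 6 and 16 under other settings. Some regulators of mitosis rose, among them Aurka, the Aurora A kinase, with 9.85, 10.10 and 9.93 in the 4 h arrays, against 8.78, 8.71 and 8.90 in the 2 h arrays (1.16 ± 0.08, adjusted p = 6.27e-11). Plk1 (0.95 ± 0.09) and Cdc20 (0.82 ± 0.09) rose as well. Ccnb2, a mitotic cyclin, had 10.73, 10.91 and 10.89 in the 4 h arrays, against 11.58, 11.51 and 11.71 in the 2 h arrays (-0.76 ± 0.07, adjusted p = 1.34e-08), and the motor gene Kif4 (-0.81 ± 0.14) fell with it. Of 20 p53 targets 9 were lower and 2 higher, with Fas (-1.10 ± 0.12), a death receptor, Sesn1 (-1.06 ± 0.08) and Polk (-0.72 ± 0.12), a bypass polymerase, among the falls.

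Contractile and TGF-beta genes were lower more often than higher. Matrix genes fell in shares near that of all genes with a mean level of at least 8, of which 23.0% were higher and 24.1% lower. Of 31 contractile genes that respond to SRF and YAP 15 were lower and 2 higher (median -0.17). Ccn2, connective tissue growth factor, had 9.36, 9.47 and 9.40 in the 4 h arrays, against 10.43, 10.40 and 10.75 in the 2 h arrays (-1.12 ± 0.12, adjusted p = 4.33e-08). Fhl2 (-1.09 ± 0.10) and Lima1 (-1.05 ± 0.05), LIM proteins of the actin cytoskeleton, Mrtfb (-0.59 ± 0.07), a coactivator of SRF, and Tagln (-0.57 ± 0.11), a smooth muscle actin-binding protein, fell with it. The TGF-beta list was lower in 11 and higher in 3 of 24. Its ligands parted, since Tgfb2 (-0.94 ± 0.07) and Tgfb3 (-0.43 ± 0.07) fell and Tgfb1 (0.33 ± 0.07) rose. Nox4 (-0.67 ± 0.13), an oxidase gene, fell too. Collagens and basement membrane genes were lower in 6 and higher in 1 of 30, with the steepest fall in the laminin chain gene Lama4 (-0.77 ± 0.08) and the rise in Col18a1 (0.34 ± 0.09). Of 36 matrix remodelling genes 6 (16.7%) were higher and 8 (22.2%) lower, against the same 23.0% and 24.1%. The urokinase receptor gene Plaur had 10.02, 10.24 and 10.12 in the 4 h arrays, against 8.86, 8.92 and 9.09 in the 2 h arrays (1.17 ± 0.10, adjusted p = 7.7e-10). Its ligand gene Plau (-0.81 ± 0.11) fell, as did Has2 (-0.67 ± 0.08), a hyaluronan synthase, and Mmp11 (-0.67 ± 0.10). Of 30 Hox genes 6 were lower and 1 higher, with Hoxd8 (-0.80 ± 0.08) the steepest fall and Hoxb2 (0.46 ± 0.08) the rise.

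Of 35 secreted growth factors 16 were lower and 3 higher (median -0.17), and the others did not pass. Vegfc (-1.0 ± 0.08), a factor for lymphatic vessels, Nrg1 (-0.94 ± 0.06) and Hbegf (-0.89 ± 0.11), ligands of the EGF receptor family, and Lif (-0.86 ± 0.13) fell. Fgf2, fibroblast growth factor 2, rose, with 12.35, 12.35 and 12.41 in the 4 h arrays, against 11.59, 11.55 and 11.44 in the 2 h arrays (0.84 ± 0.09, adjusted p = 3.95e-08). Among 34 inflammatory and NF-kB targets 6 (17.6%) were higher and 10 (29.4%) lower. All genes tested had 13.7% higher and 14.2% lower. Those with a mean level of at least 8, as 24 of the 34 had, gave 23.0% and 24.1%. The interleukin gene Il6 had 7.18, 7.76 and 7.52 in the 4 h arrays, against 8.48, 8.20 and 8.87 in the 2 h arrays (-1.03 ± 0.18, adjusted p = 5.09e-05). Rel (-1.05 ± 0.12), an NF-kB subunit, and the chemokine genes Cxcl5 (-0.98 ± 0.11) and Cxcl1 (-0.88 ± 0.13) fell, whereas Bcl3 (0.47 ± 0.06) and Nfkbib (0.48 ± 0.07), regulators of NF-kB, rose. The interleukin 6 family and acute phase list was higher in 9 and lower in 3 of 25 (median 0.09). There the ligand genes split, as Il6, Lif and Ctf1 (-0.45 ± 0.10) fell and Il11 (0.35 ± 0.09) and Clcf1 (0.40 ± 0.08), the last pair named after their values were seen, rose. The receptor gene Osmr (0.64 ± 0.07) and the downstream genes Serpina3n, Lcn2, Fgl2 (1.07 ± 0.12) and Socs3 rose. Interferon response genes were lower in 9 (29.0%) and higher in 0 of 31 (median -0.13). Ifit2 (-1.20 ± 0.15), Ifit3 (-0.83 ± 0.20), Ddx58 (-0.68 ± 0.09), the viral RNA sensor RIG-I, and Irf2 (-0.60 ± 0.07) were among the falls. Trim30a (-1.39 ± 0.13) fell too, with the limit given for Trim30d.

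Metal, stress and amino acid genes were mixed. Most of them had a mean level of at least 8, where 23.0% of all genes were higher and 24.1% lower. In iron and metal handling 9 of 24 (37.5%) were higher and 4 (16.7%) lower. Tfrc, the transferrin receptor that takes up iron, had 10.24, 10.40 and 10.37 in the 4 h arrays, against 9.21, 9.03 and 9.20 in the 2 h arrays (1.19 ± 0.10, adjusted p = 2.64e-09). Slc40a1, ferroportin, which exports iron, had 6.32, 6.32 and 6.22 in the 4 h arrays, against 7.70, 7.55 and 7.68 in the 2 h arrays (-1.36 ± 0.10, adjusted p = 1.09e-10). The importer's mRNA was thus higher and the exporter's lower at 4 h. Slc11a2 (0.53 ± 0.08), another iron importer, and the zinc transporter Slc30a1 (0.58 ± 0.08) rose, and Hmox1 (-0.63 ± 0.08), haem oxygenase, fell. In the glutathione and antioxidant list 5 of 27 (18.5%) were higher and 9 (33.3%) lower. Slc7a11 (0.96 ± 0.14), the cystine transporter, and Sod2 (0.58 ± 0.05) were among the rises. Gsr (-0.49 ± 0.06), Gclm (-0.46 ± 0.07) and Gclc (-0.33 ± 0.07), which make and recycle glutathione, were among the falls. Heat shock chaperones were higher in 12 and lower in 2 of 25 (median 0.19), led by Hsph1 (0.80 ± 0.07), Hspb1 (0.70 ± 0.09) and the chaperonin subunit Cct3 (0.57 ± 0.07). Of 25 unfolded protein response genes 6 (24.0%) were higher and 1 (4.0%) lower. The share of rises was near that of all genes with a mean level of at least 8. Eif2ak3 (0.81 ± 0.09), the kinase PERK, and Xbp1 (0.51 ± 0.07) were higher and Herpud1 (-0.40 ± 0.08) lower. Amino acid response genes and transporters were higher in 3 and lower in 7 of 28, and the falls included Chac1 (-0.96 ± 0.11), Slc6a9 (-0.96 ± 0.09), a glycine transporter, and Slc38a2 (-0.80 ± 0.05), a neutral amino acid transporter.

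**Figure D4:**
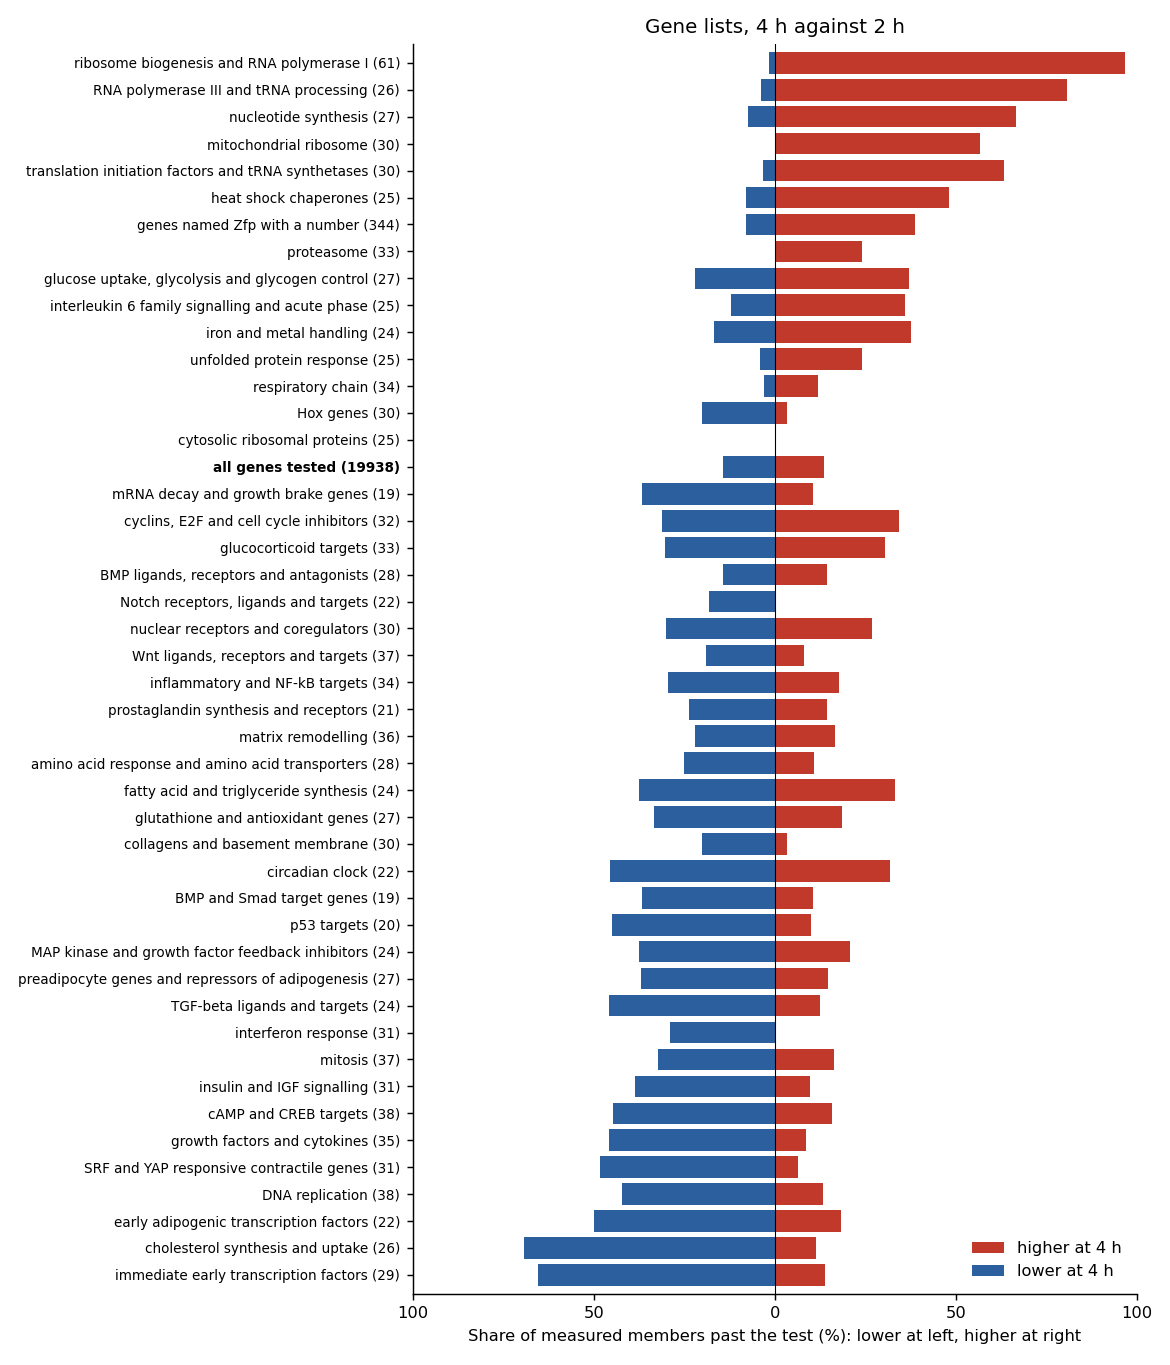
For each gene list (number of measured members in brackets), red bars to the right give the share of members higher at 4 h and blue bars to the left the share lower (percent of measured members past the test), ordered by the list's median difference, with all genes tested in bold (13.7% higher and 14.2% lower). Ribosome biogenesis (96.7% higher) stands at the top, and the cholesterol and immediate early lists (69.2% and 65.5% lower) near the bottom.

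Markers of other cell types were counted as well. Of 19 macrophage and blood cell markers, of which 4 had a mean level of at least 8, 4 (21.1%, against 13.7% of all genes tested) rose and 0 fell, namely Cd68 (0.74 ± 0.08), Cd14 (0.46 ± 0.08), Csf1r (0.30 ± 0.09) and Itgax (0.23 ± 0.07), the last of which was lost without replicate 2 of 4 h or replicate 3 of 2 h. The list's summed linear intensity was 7084 to 7700 at 4 h and 7091 to 7570 at 2 h, so the ranges overlapped. Of 15 endothelial markers 1 rose, Cdh5 (0.42 ± 0.08), and of 18 epithelial and neural markers 0 passed. Of 19 muscle, bone and cartilage markers Alpl rose, Sox9 and Des (-0.46 ± 0.08) fell, and 16 did not pass. The summed intensity of the 19 was 7197 to 7322 at 4 h and 9060 to 9218 at 2 h. That sum includes the bright Sox9 (-1.11), given above among preadipocyte genes, so it does not show a fall of the list as a whole. The part of other cell types in the results was not tested.

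Of 297 miRNA genes 10 (3.37%) were higher and 4 (1.35%) lower at 4 h, below the 13.7% and 14.2% of all genes tested. A mean level of at least 8 was reached by 67 of the 297. These probe sets can read the longer transcript that carries a miRNA, so the amount of mature miRNA is not known. Mature sequences are shown for 4 miRNA genes chosen after their values were seen, the 2 largest changes each way that passed under every setting, with the seed (bases 2 to 8) in capitals, from RefSeq on build GRCm38.p6. They lie at chr11:96850439-96850459 (plus strand, mmu-miR-152-3p), chr2:84741116-84741137 (minus strand, mmu-miR-130a-3p), chr16:43640665-43640684 (plus strand, mmu-miR-568) and chr14:61632075-61632096 (minus strand, mmu-miR-15a-5p).
mmu-miR-152-3p: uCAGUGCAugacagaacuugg
mmu-miR-130a-3p: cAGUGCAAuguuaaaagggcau
mmu-miR-568: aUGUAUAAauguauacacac
mmu-miR-15a-5p: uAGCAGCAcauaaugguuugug
None of these shared a seed with another. Mir152 had 8.74, 8.82 and 8.60 in the 4 h arrays, against 7.99, 8.05 and 8.17 in the 2 h arrays (0.65 ± 0.09, adjusted p = 4.14e-06). Mir130a (0.53 ± 0.10) rose, and Mir15a (-0.59 ± 0.13) fell. Mir568 had 8.62, 8.68 and 8.68 in the 4 h arrays, against 9.85, 9.60 and 9.78 in the 2 h arrays (-1.08 ± 0.11, adjusted p = 3.15e-08), the steepest change among miRNA genes. Of 53 snoRNA genes, which guide modification of ribosomal RNA, 7 (13.2%) were higher and 1 (1.89%) lower. Among all genes tested 13.7% were higher and 14.2% lower, so the share of rises was near that of all genes. Snord14e (-0.40 ± 0.10) was the one that fell and Snora74a (0.48 ± 0.09) was among the rises, both named after their values were seen.

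The 4 h against 2 h step was then set beside other steps of the same cells. The neighbouring steps share arrays with it, so their values are only placed side by side. At 2 h against 1 h 4133 genes (20.7%) passed, 1888 (9.47%) higher and 2245 (11.3%) lower, and at 8 h against 4 h 4767 (23.9%) passed, 2725 (13.7%) higher and 2042 (10.2%) lower. In the ribosome biogenesis list 46 members were higher and 2 lower at 2 h against 1 h, 59 and 1 at 4 h against 2 h, and 23 and 2 at 8 h against 4 h. The medians were 0.50, 0.74 and 0.14. In the immediate early list 8 were higher and 14 lower, then 4 and 19, then 1 and 20 over the same steps. Mitotic genes were lower in 26 and higher in 0 of 37 at 2 h against 1 h, lower in 12 and higher in 6 at 4 h against 2 h, and lower in 0 and higher in 19 at 8 h against 4 h.

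The step from 0 h to 1 h shares no array with the 4 h against 2 h step, although the labels give the 0 h arrays no sample code of the kind that the others carry, and it is not known whether all were run together. At 1 h against 0 h, 7.07% of genes passed, of which 554 genes (2.78%) were higher and 856 (4.29%) lower. Of the 2839 genes that fell at 4 h, 223 (7.85%) had been higher at 1 h than at 0 h, which is 40.3% of the 554. Of the 2740 that rose, 403 (14.7%) had been lower at 1 h than at 0 h, which is 47.1% of the 856, and 98 (3.58%) had been higher. Immediate early genes were higher in 27 and lower in 1 of 29 at 1 h (median 1.68), and the ribosome biogenesis list was higher in 1 and lower in 0 of 61 (median -0.03). The count of 403 depended on the scaling, with 263 when each array was centred on its median and 559 when quantile normalization was repeated, and that of 223 became 244 and 318. Ccnf, the gene of cyclin F, chosen after its values were seen, is a case of a rise after an early dip, with 9.60, 10.01 and 9.81 in the 4 h arrays, against 8.37, 8.35 and 8.57 in the 2 h arrays (1.38 ± 0.11, adjusted p = 8.26e-10). Its means were 9.82, 9.62, 8.94, 8.43, 9.81 and 9.81 at 0, 0.5, 1, 2, 4 and 8 h.

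At 8 h against 1 h, a comparison that brackets the step in time without using its arrays, 45.4% of genes passed, and 5072 genes (25.4%) were higher and 3974 (19.9%) lower. Of the 2740 genes that rose at 4 h, 2265 (82.7%) were also higher at 8 h than at 1 h and 74 were lower. Of the 2839 that fell, 2431 (85.6%) were also lower and 68 were higher. Nearly all large changes had the same direction at 8 h against 1 h, in 68 of the 72 genes higher at least 2-fold and 142 of the 145 lower at least 2-fold. That comparison does not say whether the level of 4 h was held, and Itpk1, given above, did not hold it. Against 0 h, where 46.1% of all genes passed at 8 h (24.2% higher and 21.9% lower), 1983 (72.4%) of the genes that rose were higher at 8 h and 2328 (82.0%) of those that fell were lower. Over all 19938 genes the differences of the 4 h against 2 h step had a Pearson correlation of 0.804 with those of 8 h against 1 h and of -0.185 with those of 1 h against 0 h, given as a description across genes, which are not independent. Of the genes that fell at 4 h after standing higher at 1 h than at 0 h, 41 no longer differed from 0 h by the test at 8 h, among them Fosb, Ccn2, Gem, Klf4, Zc3h12c, Spry2 and Lif.

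**Figure D5:**
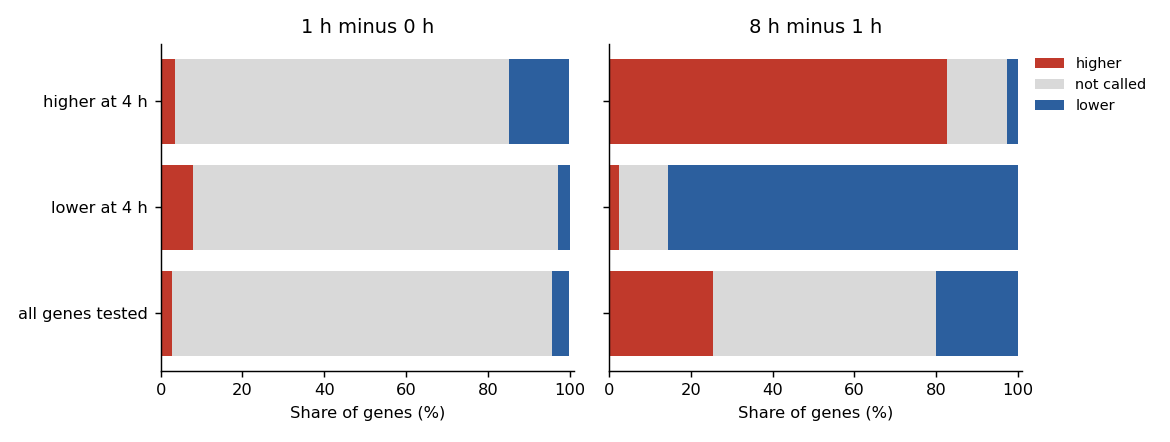
Share of genes (percent) called higher (red), not called (grey) or lower (blue) at 1 h minus 0 h (left) and at 8 h minus 1 h (right), for the genes higher at 4 h than at 2 h, those lower at 4 h, and all genes tested. Of the genes higher at 4 h, 82.7% were higher at 8 h than at 1 h and 14.7% were lower at 1 h than at 0 h, and of those lower at 4 h, 85.6% were lower at 8 h than at 1 h.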

How the data were processed

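Total RNA of 3T3-L1 cells was measured on 27 arrays in 9 groups of 3. The deposited values are log2 intensities, 1 per probe set and array, made by the authors with RMA, per the submitters' processing notes; RMA as published corrects background, makes the arrays' distributions equal and summarises probes, which compresses low values. The labels name neither a software version nor an annotation (not given in the sources used here), and the log base was taken from the values, which run between 3.35 and 14.85. Of 28853 probe sets, 21789 had 1 gene symbol in the platform table, 1621 had several and 5443 had none. Symbols were updated through RefSeq (GRCm38.p6) for 21698 of them, and each of 999 genes with several probe sets was represented by its brightest, for 19938 genes in all. Groups were taken from the labels. The deposited log2 values were fitted with limma 3.58.1 (R 4.3.3) as 1 mean per group over all 27 arrays, with eBayes (residual df 18, prior df 6.56), two-sided, with Benjamini-Hochberg adjustment over all genes. A call is an adjusted p under 0.05. Tables used Python 3.11.15, pandas 2.3.3 and numpy 2.4.6.

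Members and gene lists were chosen with earlier results of these data known, so their counts are descriptions without tests of their own. Genes were named by a rule: Isl1, Bmp4, Pparg, Cebpa, Cebpb and Cebpd, the 15 largest rises and falls whose arrays do not overlap, and from each list the 6 largest changes and the 3 largest against the list's majority. Some of the genes this rule gives are not reported here. Other names are marked in the text or are fibroblast markers. On simulated data with the real spread of these 19938 genes, the 4 h minus 2 h fit recovered 92.5% of 67 genes changed 1.5-fold and 100% of those changed 2-fold, with 12 false among 207 calls, and 0 calls where nothing was changed. The simulated noise was normal and independent between genes, and few genes were changed, whereas 28.0% passed in the data. It therefore does not give the share of false calls in the data. An exact permutation test over 3 against 3 arrays cannot go below a two-sided p of 0.1 and was not used. There were 16 alternative settings: other arrays in the fit, a replicate block, centring, a repeated quantile normalization, filters on dim genes, averaged probe sets, another variance model, and each array left out. Arrays of 48 h entered only the shared estimate of the spread.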

Additional observations from a re-analysis of the deposited data

Results flagged for a closer look

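Probe sets that the platform table gives no symbol or several symbols were outside the comparison of genes. Of 7064 such probe sets, 497 (7.04%) passed the same limma test at 4 h against 2 h, 302 of them higher and 195 lower at 4 h, and 18 by at least 2-fold. The share among named genes was 28.0%. They are given here as a signal in data that the comparison of genes did not use, and no gene was assigned to them.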

How the results depend on the processing

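Over 16 settings the count of changed genes stayed between 4817 and 6403, and all 217 genes changed at least 2-fold kept their call and direction wherever they were tested. Leaving out each array in turn gave 4817 to 5125 changed genes (2239 to 2505 higher, 2321 to 2717 lower), 203 to 242 changed at least 2-fold (65 to 83 higher, 122 to 177 lower), 566 to 581 list members and 296 to 299 named genes past the test. It gave 1910 to 2094 genes higher at 4 h and at 8 h against 1 h, 2029 to 2341 lower in both, 322 to 368 higher at 4 h but lower at 1 h against 0 h, and 200 to 221 lower at 4 h but higher at 1 h. In place of 403 genes higher at 4 h but lower at 1 h against 0 h, centring each array on its median gave 263 and repeated quantile normalization 559, and in place of 223 that went the other way these gave 244 and 318; the cause was not tested. Pde4d reversed to -0.06 (limma adjusted p = 0.794) with all its probe sets averaged. Of 312 named genes that passed, 283 passed in every setting, and of 100 list counts 23 moved by over 1.5 times in some setting, mostly counts of 5 or fewer. Replicate numbers did not pair the arrays (same-number correlations of deviations 0.007, -0.194 and 0.226), and with the replicate number as a block 5572 genes passed over all 27 arrays and 5118 over the 6. Signal near background limits the genes with a mean under 8.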

Other observations

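Zinc finger genes whose symbol is Zfp with a number, a group picked after its values were seen, were higher in 133 and lower in 27 of 344 at 4 h against 2 h (median 0.18), against 13.7% higher and 14.2% lower among all genes. Of the 249 with a mean level of at least 8, 113 (45.4%) were higher and 25 (10.0%) lower, against 23.0% and 24.1% of all genes at that level. At 1 h against 0 h, which shares no array with this comparison, 8 of the 344 were higher and 149 lower (median -0.25). Many such genes encode KRAB zinc finger proteins, repressors of transposable elements. Zfp566 had 9.51, 9.50 and 9.46 in the 4 h arrays, against 8.34, 8.13 and 8.37 in the 2 h arrays, and its mean was 8.91 at 0 h. Zfp442 (1.30 ± 0.17) was the largest rise of the group. Zfp521 (-1.12 ± 0.08), a regulator of adipose commitment, and Zfp618 (-1.32 ± 0.08) fell.

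Genes on chromosome X, also picked after values were seen, were lower in 132 and higher in 37 of 313 with a mean level of at least 8 (median -0.15), against 2478 lower and 2448 higher of 10491 on other chromosomes (median 0.01). The difference between the chromosomes was not tested.

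Of the 403 genes higher at 4 h than at 2 h and lower at 1 h than at 0 h, 88 were Zfp genes. The Zfp group holds 344 of all 19938 genes tested. By the test at 8 h, 161 of the 403 no longer differed from 0 h. The 403 became 263 with each array centred on its median and 559 with repeated quantile normalization, and the 88 and 161 were not recounted there.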
